A study of Mus musculus with 6 samples.

Results

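The thioredoxin and glutaredoxin systems are described here in RNA of hearts in which thioredoxin-1 was to be removed from cardiomyocytes. The members are 10 genes chosen by name: Txn1, Txnrd1, Txnip, Txnl1, Txn2, Txnrd2, Txnrd3, Glrx, Glrx2 and Glrx5. All 10 have a row in the deposited table of 14133 genes. The hearts labelled KO (replicates 6, 7 and 8) carried floxed Trx1 alleles and the MHC-Cre transgene, and those labelled CT (replicates 3, 4 and 5) carried the floxed alleles without it. Trx1 is the protein name used in the labels for the product of Txn1. Per the series' design text the Cre is driven by the Myh6 promoter, which is active in cardiomyocytes, so the deletion is directed to these and not to the other cells of the heart. All mice were C57BL/6 and 1 month old. No group carried Cre without floxed alleles, so effects of Cre and of the Txn1 deletion cannot be told apart. Whether replicates are separate animals is not said in the labels, and p-values here reflect only the spread among these libraries, which may be technical.

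Thioredoxins and glutaredoxins are small proteins that reduce disulfide bonds in other proteins. Thioredoxins get their electrons from NADPH through thioredoxin reductases, which carry selenocysteine at the active site, and glutaredoxins get theirs from glutathione, which glutathione reductase keeps reduced. The cytosol uses Txn1 with Txnrd1 and the mitochondrion uses Txn2 with Txnrd2. Txnip binds reduced thioredoxin and blocks it, and its RNA follows glucose supply through the factors Mlxip and Mlxipl. In the heart the cytosolic thioredoxin is known for protection against hypertrophy and oxidative stress.

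The promoters of the targeted gene, of its reductase and of its inhibitor are shown to look for the pathway's textbook control elements, the antioxidant response element bound by NRF2 and the carbohydrate response element bound by Mlxipl with its partner Mlx. Each line holds the 250 bases before an annotated start, 5′ to 3′ on the gene's strand, from RefSeq (GRCm38.p6). Capitals mark a match to TGACNNNGC, the core of the antioxidant response element, on either strand for Txn1 and Txnrd1, and for Txnip to the carbohydrate response element, on either strand, searched as CACGNG and CNCGNG with 5 bases of any kind between them. A match describes letters and does not show that a factor binds there. The windows are chr4:57956412-57956661 (minus strand), chr10:82858956-82859205 (plus strand) and chr3:96557707-96557956 (plus strand).
Txn1: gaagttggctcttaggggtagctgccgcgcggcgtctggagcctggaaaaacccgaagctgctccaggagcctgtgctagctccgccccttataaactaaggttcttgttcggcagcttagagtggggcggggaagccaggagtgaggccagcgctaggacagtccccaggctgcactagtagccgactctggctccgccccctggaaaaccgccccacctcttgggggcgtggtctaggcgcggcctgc
Txnrd1, start 2 of 3: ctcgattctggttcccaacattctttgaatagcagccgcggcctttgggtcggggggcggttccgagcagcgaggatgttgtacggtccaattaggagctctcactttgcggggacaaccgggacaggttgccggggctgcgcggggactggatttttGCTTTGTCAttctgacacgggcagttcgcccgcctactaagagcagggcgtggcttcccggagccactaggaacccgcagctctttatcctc
Txnip: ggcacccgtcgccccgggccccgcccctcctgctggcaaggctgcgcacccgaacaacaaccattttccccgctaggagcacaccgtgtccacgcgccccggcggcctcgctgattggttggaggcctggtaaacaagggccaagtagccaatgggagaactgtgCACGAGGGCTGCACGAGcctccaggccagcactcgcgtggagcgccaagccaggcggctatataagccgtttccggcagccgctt

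The match at Txnrd1 begins 92 bases before the second of its 3 annotated starts and lies on the opposite strand. The windows of its other starts hold none, nor does the window of Txn1. Of 32851 promoter windows of this length, 10.2% held this core on either strand. The match at Txnip begins 85 bases before its start, and 0.28% of all windows held such an element. CACGTG, the E-box, was also searched; among the searched windows it lay only before the fourth of 4 starts of Glrx2, and 6.02% of all windows held it. Windows of 9 of the 10 genes were searched, that of Txnl1 was not, and no other searched window matched any of the 3 motifs.

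The 10 genes lie on 10 different chromosomes, so none neighbours another. Txn1 has 5 exons at chr4:57943373-57956411 on the minus strand and Txnrd1 has 15 in its longest transcript at chr10:82833951-82897724 on the plus strand (RefSeq bounds, GRCm38.p6, the assembly of mm10; exons from GENCODE). Txnip lies at chr3:96557957-96561857 and Txn2 at chr15:77915051-77928994. The deposited values are log2 CPM, reads scaled to library size (CPM) on a log scale, and are levels of a gene's whole RNA. Reads taken back from them came to 8347636 to 10236783 per KO library and 9257984 to 13705281 per CT library. Each of the 10 genes held 88.0 to 7735 reads per library.

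Of 12516 tested genes, 9.66% passed the test between the groups (limma with an intensity trend, Benjamini-Hochberg adjusted p under 0.05), 4.79% as higher and 4.87% as lower in hearts labelled KO. The number of these genes depended on single libraries: it was 1209 with all libraries, 2185 (17.5%) without KO replicate 8, 703 without KO replicate 7 and 526, 403 and 417 without CT replicates 3, 4 and 5. Of the calls, 49.6% were higher, and 65.7% were higher when CPM were rescaled to one equal sum per library. KO replicate 8 stood nearer to the CT libraries than replicates 6 and 7 did in the cardiomyocyte, fibroblast and endothelial marker sums given below. In the macrophage sum it stood farther from them.

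Of the 10 genes, 1 rose in hearts labelled KO, 0 fell and 9 did not pass the test. That is 10%, near the 9.66% of all tested genes, so it is no sign that the system as a whole stands out. The gene that rose was Txnrd1, by 0.70 on the log2 scale. With limma-voom on the reads taken back the same number passed, against 9.93% of all genes. Without adjustment, 2 of the 10 had a p under 0.05, against 24.8% of all genes. The groups did not overlap for 2 of the 10, Txnrd1 above and Txn2 below, against 30.7% of all genes (14.4% above and 16.2% below). The median log2 difference was -0.21 over the 10 genes and -0.01 over all tested genes.

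**Figure D1:**
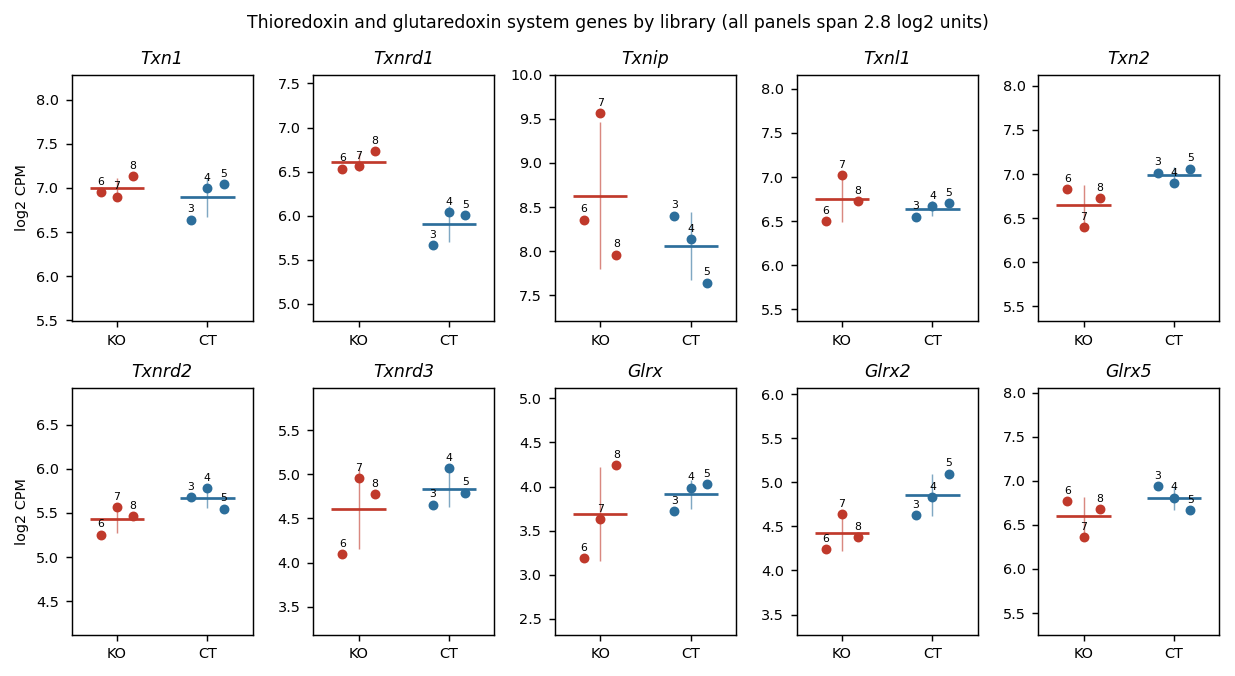
Level of each gene in log2 CPM (vertical axis) in the 3 KO and the 3 CT libraries, with the replicate number at each point, the mean as a bar and the SD as a thin line. Txnrd1 is the gene whose KO values all lie above the CT values and Txn2 the one whose KO values all lie below, while the other 8 overlap.

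Txn1, the targeted gene, was not lower in hearts labelled KO. Its level was 6.95, 6.90 and 7.13 log2 CPM in KO replicates 6, 7 and 8, against 6.64, 6.996 and 7.04 log2 CPM in CT replicates 3, 4 and 5. The groups overlapped, and CT replicate 3 was the lowest of the 6. KO minus CT was 0.10 log2 with a 95% confidence interval of -0.22 to 0.42 (limma adjusted p = 0.72; exact two-sided permutation test p = 0.7, where 0.1 is the smallest that 3 against 3 libraries can give). The lower bound of that interval, -0.22, is the largest decrease that it admits. Without CT replicate 3 the difference was -0.025. Each library held 1148 to 1344 reads of the gene, so counting error is small beside the spread between libraries.

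The value of Txn1 was planned as a check of the labels, and it showed no decrease. It cannot decide whether the deletion took place. It covers all 5 exons, the floxed exons are not named in the labels, and the allele is whole in cells without Cre. In RNA of a whole tissue, fewer cells of a type and less RNA per cell cannot be told apart. Because of this value the groups are named by their labels throughout. GENCODE names 1 processed pseudogene of Txn1, Txn-ps1 on chromosome 1, and whether its reads were counted with Txn1 is not known.

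Markers of cell types differed beside these values. Over all tested genes, 4.79% rose, 4.87% fell and 24.8% had an unadjusted p under 0.05. Of 12 cardiomyocyte markers, 6 fell and 0 rose, and their summed level was 96754 to 133518 CPM in KO libraries, against 157356 to 172290 CPM in CT libraries. The number that fell was 9 without KO replicate 8, 3 and 4 without KO replicates 6 and 7, 2 without CT replicate 3 or 4 and 1 without CT replicate 5. Of 10 fibroblast markers, 5 rose and 0 fell (3 rose without CT replicate 4, 2 with a robust trend), with sums of 5543 to 9540.4 CPM in KO libraries and 3453 to 4339 CPM in CT libraries. Summed macrophage markers were 1180.3 to 1359.6 CPM in KO libraries and 973 to 1051 CPM in CT libraries, and endothelial markers 1696 to 2069.7 CPM in KO libraries and 2214 to 2336 CPM in CT libraries. Of the macrophage markers 0 of 10 passed the test (3 at an unadjusted p under 0.05, and 0 with limma-voom), while 1 fell without KO replicate 8 and 1 rose with rescaled CPM or quantile normalization. Of the 10 endothelial markers 1 fell, against 3 without KO replicate 8 and 0 without CT replicate 5. With no intensity trend, 1 cardiomyocyte marker fell, and 0 fibroblast markers rose and 0 endothelial markers fell. No marker of these 4 lists was at the lowest value of the table in any library. In KO replicate 8 the cardiomyocyte and macrophage sums were the highest of its group and the fibroblast sum the lowest. The part of cell makeup in the values of the 10 genes was not tested.

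Txnrd1, the cytosolic reductase that feeds electrons to Txn1, rose 1.63-fold. Its level was 6.54, 6.56 and 6.73 log2 CPM in KO replicates 6, 7 and 8, against 5.67, 6.05 and 6.01 log2 CPM in CT replicates 3, 4 and 5. All KO values lay above all CT values. Means were 6.61 ± 0.11 log2 CPM in KO and 5.91 ± 0.21 log2 CPM in CT hearts (SD, n = 3 each), a log2 difference of 0.70 ± 0.15 (SE; 95% interval 0.37 to 1.03; limma adjusted p = 0.013). Among all tested genes, 18.2% had a larger absolute difference. KO replicate 8 held the highest value of Txnrd1, and without that replicate the difference was 0.64 (adjusted p = 0.015). The call was lost without CT replicate 3 (difference 0.58, adjusted p = 0.086) and without CT replicate 5 (difference 0.75, adjusted p = 0.055), and in a fit with no intensity trend (adjusted p = 0.088).

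The ratio of Txnrd1 to Txn1 within a library does not depend on library scaling, and its SD was smaller than that of either gene in both groups. It was -0.42, -0.34 and -0.40 log2 in KO replicates 6, 7 and 8, against -0.97, -0.95 and -1.04 log2 in CT replicates 3, 4 and 5. Within each group the 3 libraries lay close together, with an SD of 0.04 in KO and 0.04 in CT hearts, and the groups were wide apart. An SD of 3 values is itself imprecise. Txnrd1 held 593.5 to 964.75 reads per library, at which counting alone can spread the ratio by as much. The closeness within groups is therefore no sign of a tightly held ratio. CT replicate 3, the lowest library for both genes, was not apart from its group in the ratio. The difference between groups was 0.60 log2, a 1.52-fold higher ratio in hearts labelled KO (exact two-sided permutation p = 0.1, the smallest possible here; 0.25 adjusted over the 5 ratios tested). It was 0.57 to 0.62 with any 1 library left out, so no library decided its size.

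**Figure D2:**
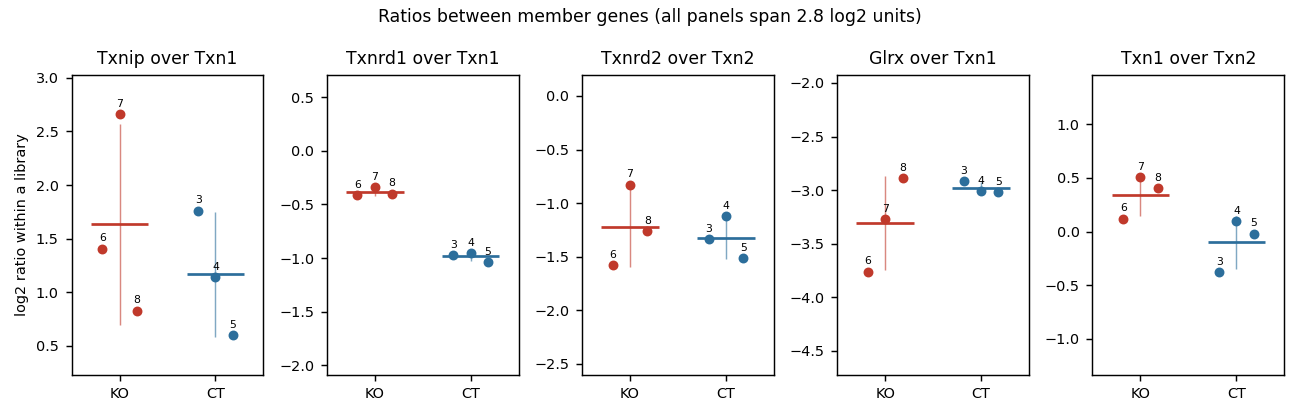
Log2 ratio of pairs of genes within each library (vertical axis) for 3 KO and 3 CT libraries, with replicate numbers, means as bars and SD as thin lines. The Txnrd1 over Txn1 ratio falls into 2 tight, separate groups, while the Txnip over Txn1 ratio ranges from 0.83 to 2.66 in KO hearts and from 0.60 to 1.76 in CT hearts.

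Of the other 4 ratios, that of Txn1 to Txn2, the cytosolic to the mitochondrial thioredoxin, also separated the groups. It was 0.12, 0.51 and 0.41 log2 in KO replicates 6, 7 and 8, against -0.38, 0.10 and -0.02 log2 in CT replicates 3, 4 and 5. The gap between KO replicate 6 and CT replicate 4 was small. The difference was 0.44 log2 (exact permutation p = 0.1, adjusted 0.25), and 0.31 to 0.56 with 1 library left out. The ratios of Txnrd2 to Txn2, Glrx to Txn1 and Txnip to Txn1 overlapped between groups, with differences of 0.10, -0.32 and 0.46 log2 (exact permutation p = 0.7, 0.4 and 0.6). Without KO replicate 7 the differences for Txnrd2 over Txn2 and Txnip over Txn1 were -0.094 and -0.050 log2, and without KO replicate 6 that for Glrx over Txn1 was -0.10.

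Txnip, the inhibitor of thioredoxin, was the most variable of the 10 genes and did not pass the test. Its level was 8.36, 9.56 and 7.96 log2 CPM in KO replicates 6, 7 and 8, against 8.40, 8.14 and 7.64 log2 CPM in CT replicates 3, 4 and 5. KO replicate 7 stood above all other libraries, and the other 2 KO values lay within the range of the CT values. In reads, KO replicate 7 held 7735, against 1977 to 4562 in the CT libraries. The log2 difference was 0.57 ± 0.32 (SE; 95% interval -0.13 to 1.27; limma adjusted p = 0.304). It was 0.10 without KO replicate 7, and 0.90 without KO replicate 8, where it passed the test (adjusted p = 0.047). Its SD in KO hearts, 0.83, was exceeded by 8.12% of all tested genes. An antisense gene, Gm15441, overlaps exons of Txnip on the opposite strand, and without strand the reads of both cannot be told apart. The labels do not describe counting by strand, and an abbreviation in the deposited table's name may stand for counting without it.

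Txnl1, a thioredoxin-like protein bound to the proteasome, did not pass the test. It was at 6.502, 7.02 and 6.72 log2 CPM in KO replicates 6, 7 and 8, against 6.55, 6.67 and 6.70 log2 CPM in CT replicates 3, 4 and 5. The CT values were close together and the KO values lay on both sides of them. KO minus CT came to 0.11 ± 0.15 log2 (SE; limma adjusted p = 0.718), and -0.030 without KO replicate 7. Exons of Wdr7 overlap Txnl1 on the opposite strand.

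The 4 genes of mitochondrial proteins, Txn2, Txnrd2, Glrx2 and Glrx5, all had lower means in hearts labelled KO, and 0 of them passed the test with limma or with limma-voom. Glrx and Txnrd3 also had lower means (log2 differences -0.22 and -0.23), so a lower mean was not particular to these 4. Over all tested genes, 51.2% had a negative difference, 9.66% passed with limma and 9.93% with limma-voom. Of the 4, Txn2, the mitochondrial thioredoxin, came nearest to passing. Its level was 6.83, 6.40 and 6.73 log2 CPM in KO replicates 6, 7 and 8, against 7.02, 6.90 and 7.06 log2 CPM in CT replicates 3, 4 and 5. All KO values lay below all CT values, by a gap small beside the spread in KO hearts. Means were 6.65 ± 0.23 log2 CPM in KO and 6.99 ± 0.08 log2 CPM in CT hearts (SD, n = 3 each), a difference of -0.34 ± 0.15 (SE). Its unadjusted limma p was 0.037 and its adjusted p was 0.169. The difference was -0.22 without KO replicate 7.

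Txnrd2, the reductase of Txn2, was at 5.25, 5.57 and 5.47 log2 CPM in KO replicates 6, 7 and 8, against 5.68, 5.78 and 5.55 log2 CPM in CT replicates 3, 4 and 5. The groups met at KO replicate 7 and CT replicate 5. The log2 difference was -0.24 ± 0.16 (SE; limma adjusted p = 0.383). The 95% interval was -0.59 to 0.10, against 0.37 to 1.03 for Txnrd1, and the difference between the 2 reductases was not tested.

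**Figure D3:**
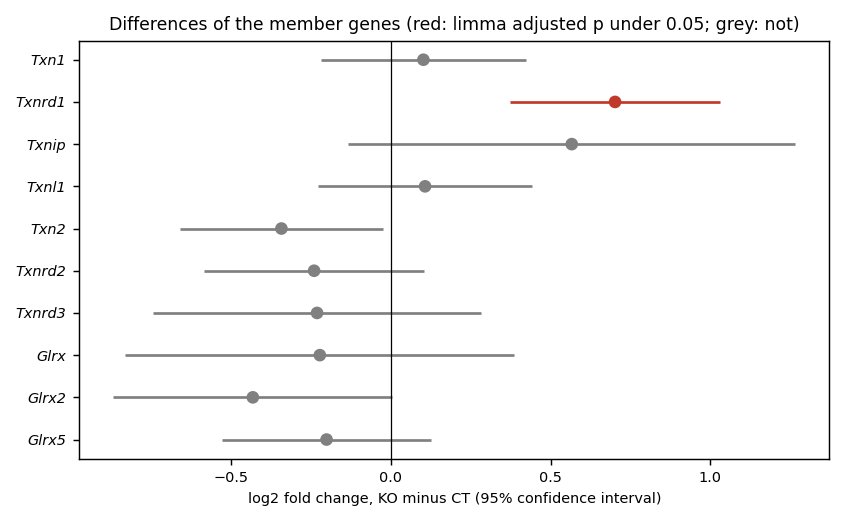
Log2 difference of each gene between KO and CT hearts (horizontal axis, KO minus CT) with its 95% confidence interval from limma. Txnrd1 alone is past the test, and the intervals of Txn2 and Txnrd1 are the ones that leave out 0.

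Txnrd3, a reductase with an added glutaredoxin domain known mainly from testis, was at 4.09, 4.96 and 4.77 log2 CPM in KO replicates 6, 7 and 8, against 4.66, 5.07 and 4.79 log2 CPM in CT replicates 3, 4 and 5. KO replicate 6 was the lowest, and the groups overlapped. The log2 difference was -0.23 ± 0.24 (SE; limma adjusted p = 0.594), and 0.026 without KO replicate 6.

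Of the glutaredoxins, which can stand in for thioredoxin on some substrates, 0 of 3 passed the test with limma or limma-voom. An unadjusted p under 0.05 was held by 0 of them. Over all tested genes these shares were 9.66%, 9.93% and 24.8%. Glrx, the cytosolic form, was at 3.19, 3.63 and 4.25 log2 CPM in KO replicates 6, 7 and 8, against 3.73, 3.99 and 4.02 log2 CPM in CT replicates 3, 4 and 5. The KO libraries held both the lowest and the highest value, so the groups overlapped wholly. It had the fewest reads of the 10 genes, and the log2 difference was -0.22 with an interval of -0.83 to 0.39 (limma adjusted p = 0.674). Without KO replicate 6 it was 0.027.

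Glrx2, which has mitochondrial and other forms from different starts, was at 4.24, 4.64 and 4.38 log2 CPM in KO replicates 6, 7 and 8, against 4.63, 4.83 and 5.10 log2 CPM in CT replicates 3, 4 and 5. The groups overlapped at KO replicate 7 and CT replicate 3. The difference came to -0.43 ± 0.20 (SE; limma adjusted p = 0.206). Glrx5, a mitochondrial glutaredoxin that passes iron-sulfur clusters on, was at 6.77, 6.37 and 6.68 log2 CPM in KO replicates 6, 7 and 8, against 6.94, 6.81 and 6.67 log2 CPM in CT replicates 3, 4 and 5. KO replicate 7 was the lowest, and the other KO values lay within the CT range. The log2 difference was -0.20 ± 0.15 (SE; limma adjusted p = 0.446).

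**Figure D4:**
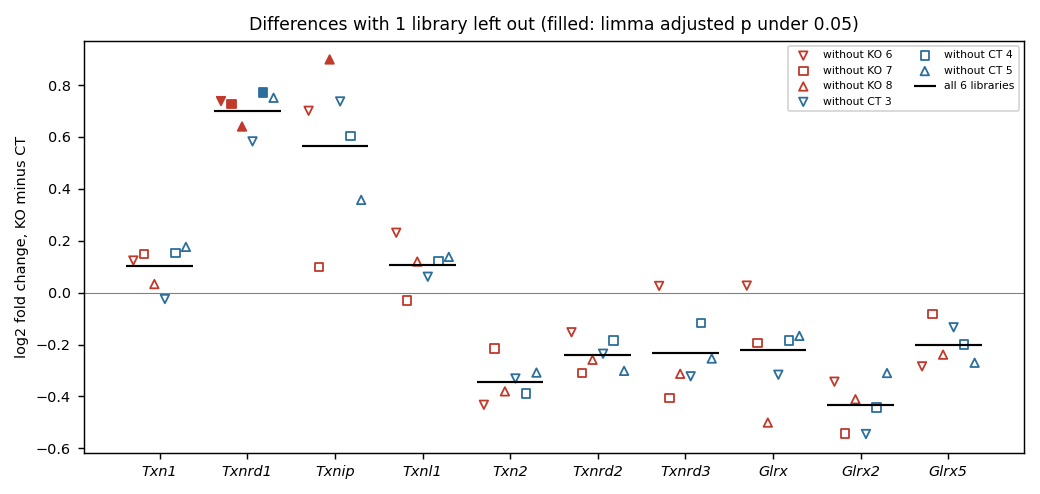
Log2 difference of each gene (vertical axis, KO minus CT) with all 6 libraries (black bar) and with each library left out (symbols, filled where limma adjusted p is under 0.05). Txnrd1 stays between 0.58 and 0.77, while Txnip lies at 0.10 without KO replicate 7 and at 0.90 without KO replicate 8.

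The spread between libraries was larger in KO than in CT hearts for 7 of the 10 genes, as for 70.0% of all tested genes. Txn1, Txnrd1 and Glrx2 were the 3 exceptions. KO replicate 6 held the lowest of the 6 values for 5 genes, Txnl1, Txnrd2, Txnrd3, Glrx and Glrx2. KO replicate 7 held the highest value of Txnip and Txnl1 and the lowest of Txn2 and Glrx5. KO replicate 8 held the highest value of Txn1, Txnrd1 and Glrx.

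Levels between genes can be compared only per length, here CPM per kilobase of the mean GENCODE transcript paired with a RefSeq NM record, an approximation for genes with several transcripts. In KO hearts the order was Txnip (158 ± 96.9 CPM per kilobase), Txn1 (121.5 ± 10.4), Txn2 (77.9 ± 11.8), Glrx5 (33.5 ± 4.8), Txnrd1 (30.6 ± 2.3), Txnl1 (25.0 ± 4.6), Txnrd2 (22.7 ± 2.5), Glrx2 (10.3 ± 1.5), Glrx (9.97 ± 3.73) and Txnrd3 (9.41 ± 2.72), each with the SD of 3 libraries. In CT hearts it was Txn1 (113.8 ± 16.6 CPM per kilobase), Txn2 (98.2 ± 5.6), Txnip (97.1 ± 24.7), Glrx5 (38.4 ± 3.6), Txnrd2 (26.7 ± 2.2), Txnl1 (23.0 ± 1.3), Txnrd1 (18.9 ± 2.6), Glrx2 (13.9 ± 2.3), Glrx (11.2 ± 1.2) and Txnrd3 (10.8 ± 1.6). Txnrd1 was the fifth in KO and the seventh in CT hearts, and Txnrd2 the reverse. Neighbours in the CT order whose libraries did not overlap were Txnip and Glrx5, Glrx5 and Txnrd2, Txnrd2 and Txnl1, and Txnl1 and Txnrd1. In the KO order they were Txn1 and Txn2, Txn2 and Glrx5, and Txnrd2 and Glrx2. Per length, both thioredoxins lay above their reductases and above the glutaredoxins in both groups.

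Among the genes whose levels were most like that of Txn1 over the 6 libraries were Dennd2a and Taf5l, with Pearson r of 0.97 and 0.96 among the 7106 genes whose mean was 4 log2 CPM or more. Both share with Txn1 their lowest value in CT replicate 3. They were picked as among the highest of 7106 genes over only 6 libraries, where r this high can arise without any relation. Among the members, r with Txn1 ran from -0.40 for Txnip to 0.64 for Txnrd1 (n = 6 libraries, described without a test).

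Around the 10 genes, 6 lists of pathway genes were counted. The lists were chosen with earlier results of these data known, so a share above that of all genes can come from this choice. Of 17 genes of NADPH supply to both systems, including glutathione reductase, 3 rose and 1 fell, and 13 did not pass the test. The share that passed was 23.5%, against 9.66% of all tested genes, and the median log2 difference was -0.02. The number that rose was 1 without KO replicate 6 or 7 or CT replicate 3 or 5, 2 without CT replicate 4 and 4 without KO replicate 8. The number that fell was 0 without CT replicate 4 or 5, 5 without KO replicate 8, 2 with limma-voom and 3 with library weights. Me1, the cytosolic malic enzyme, rose to 7.38 ± 0.10 log2 CPM in KO hearts, against 6.64 ± 0.09 log2 CPM in CT hearts (SD, n = 3 each), a log2 difference of 0.74 (limma adjusted p = 0.0044). It passed with any 1 library left out. Gsr, glutathione reductase, which serves the glutaredoxins as Txnrd1 serves Txn1, rose by 0.83 on the log2 scale (adjusted p = 0.019). Its level was 5.92, 5.95 and 5.47 log2 CPM in KO replicates 6, 7 and 8, against 4.78, 5.27 and 4.79 log2 CPM in CT replicates 3, 4 and 5, so the groups did not overlap.

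G6pdx, the first enzyme of the pentose phosphate pathway, rose by 0.89 on the log2 scale (adjusted p = 0.027); it is outside the rule for named genes and was picked after its value was seen. Aldh1l2, a mitochondrial folate enzyme that makes NADPH, fell to 1.05 ± 0.43 log2 CPM in KO hearts, against 3.03 ± 0.35 log2 CPM in CT hearts (adjusted p = 0.0092). Calls lost without 1 library were those of Gsr (without KO replicate 6 or 7 or CT replicate 3 or 5, adjusted p up to 0.106), G6pdx (without KO replicate 6 or 7 or any 1 CT replicate, adjusted p up to 0.119) and Aldh1l2 (without CT replicate 4 or 5, adjusted p up to 0.075).

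Of 24 genes of selenoprotein synthesis and other selenoproteins, the class to which the Txnrd genes belong, 4 rose, 0 fell and 20 did not pass. The share that passed was 16.7%, against 9.66% of all tested genes, and the median was 0.01. This list too was chosen with earlier results known, so its share is not a test of the class. The genes that rose encode selenoenzymes and not the synthesis machinery. Gpx3, the secreted glutathione peroxidase, rose to 8.60, 8.995 and 7.37 log2 CPM in KO replicates 6, 7 and 8, against 6.56, 6.25 and 6.51 log2 CPM in CT replicates 3, 4 and 5 (3.68-fold, adjusted p = 0.0032). Gpx1, the cytosolic form, rose 1.96-fold (adjusted p = 0.0021), and Dio2, a deiodinase that activates thyroid hormone, rose by 3.52 on the log2 scale, to 3.31 ± 0.85 log2 CPM in KO hearts, against -0.20 ± 1.197 log2 CPM in CT hearts (adjusted p = 0.0054). Dio2 was at 1.07, -0.38 and -1.30 log2 CPM in CT replicates 3, 4 and 5, levels so low that the size of its rise is imprecise. Gpx3, Gpx1 and Dio2 passed with any 1 library left out. Gpx4, the lipid peroxide peroxidase, also picked after its value was seen, rose by 0.56 (adjusted p = 0.029), but not without KO replicate 6 or any 1 CT replicate (adjusted p up to 0.144). Without KO replicate 8 the number that rose was 7.

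**Figure D5:**
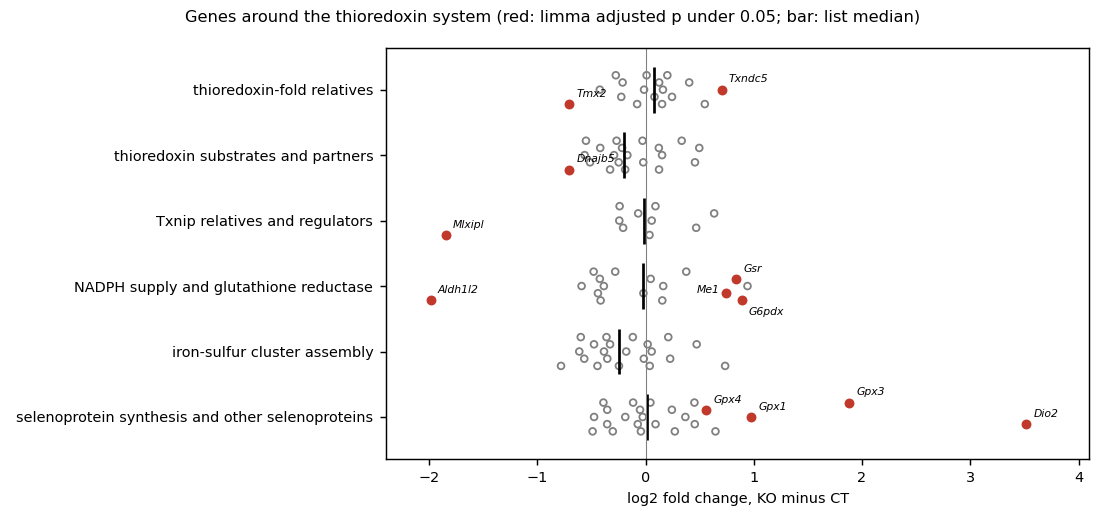
Log2 difference (horizontal axis, KO minus CT) of each tested gene in 6 lists of genes around the thioredoxin system, red where limma adjusted p is under 0.05, with a bar at the list median. The medians lie between -0.25 and 0.08, and Dio2, at 3.52, and Aldh1l2, at -1.99, lie farthest from 0.

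Of 20 substrates and partners of thioredoxin, 1 fell, 0 rose and 19 did not pass, with a median of -0.20. The share that passed was 5%, against 9.66% of all tested genes. The number that rose was 1 in 6 of 10 other settings with all libraries, limma-voom among them, and without KO replicate 6 or 8. The gene that fell was Dnajb5, a heat shock protein that forms a complex with thioredoxin and Hdac4, at 5.70 ± 0.24 log2 CPM in KO and 6.40 ± 0.20 log2 CPM in CT hearts (SD, n = 3 each; limma adjusted p = 0.020). That call was lost without KO replicate 7 or any 1 CT replicate (adjusted p up to 0.128), and without KO replicate 8 the number that fell was 4. The 5 peroxiredoxins of this list, which thioredoxin reduces, had log2 differences from -0.29 for Prdx3 to 0.15 for Prdx1, with adjusted p of 0.226 and 0.493 for those 2 genes.

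Of 10 tested relatives and regulators of Txnip, 1 fell, 0 rose and 9 did not pass, with a median of -0.02. The share that passed was 10%, near the 9.66% of all tested genes. The gene that fell was Mlxipl, which encodes a factor known to bind carbohydrate response elements, such as that marked in the Txnip promoter. It was at 4.45, 2.96 and 5.10 log2 CPM in KO replicates 6, 7 and 8, against 6.05, 5.88 and 6.12 log2 CPM in CT replicates 3, 4 and 5 (log2 difference -1.85, adjusted p = 0.012). Mlxipl was lowest in KO replicate 7, the library in which Txnip was highest, and a relation between the levels of these genes was not tested. The call of Mlxipl was lost without CT replicate 4 or 5 (adjusted p up to 0.073) and with a robust trend (0.089). Mlxip, the related factor of muscle, had a log2 difference of -0.07 (adjusted p = 0.895), and Arrdc4, an arrestin-like gene close to Txnip, one of 0.63 (adjusted p = 0.192).

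Of 17 tested relatives with a thioredoxin fold, 1 rose and 1 fell, with a median of 0.08. The share that passed was 11.8%, near the 9.66% of all tested genes. Txndc5, an oxidoreductase of the endoplasmic reticulum, rose by 0.70 in log2 terms (adjusted p = 0.036), whereas Tmx2, a membrane-bound relative, fell by 0.71 (adjusted p = 0.040). Leaving out any 1 library but KO replicate 8 ended both calls (adjusted p up to 0.149 for Txndc5 and 0.174 for Tmx2), and for Tmx2 so did rescaling to equal sums (0.062) and testing without a filter (0.051). The number that rose was 2 with rescaled CPM, with library weights and without KO replicate 8. Of 21 genes of iron-sulfur cluster assembly, the process Glrx5 serves, 0 passed with limma, against 9.66% of all tested genes. With limma-voom 0 passed, against 9.93%. Before adjustment, 8 of the 21 had a limma p under 0.05, against 24.8% of all tested genes. The median of the 21 was -0.25, and the number that fell was 5 without KO replicate 8 and 1 with library weights. In the fit with no intensity trend, all pathway genes named above as risen or fallen lost their calls except Aldh1l2, with adjusted p from 0.0605 for Gpx1 to 0.155 for Tmx2.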

How the data were processed

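Per the labels' protocols, heart RNA was taken up in TRIzol and made into Illumina libraries. The authors deposited 1 table of log2 CPM with 1 column per library, per the file headers. The submitters' processing notes name the build mm10 and the tools HISAT2, CASAVA and edgeR, without version, role or order. All libraries share a lowest value of -3.288 log2 CPM, so a pseudocount of 0.1024 CPM had been added before deposit. The remaining CPM summed to 919751 to 999840.0 in KO and 1016053 to 1042612 in CT libraries, so library sizes had been scaled before deposit and the sums differed by group. Reads were taken back from the steps between low values, and 85.2% to 85.9% of genes under 500 reads came out whole within 0.02 reads. The rest were fractions, so reads entered only an alternative fit, limma-voom. Precision is limited by the spread between 3 libraries per group.

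Testing covered the 12516 genes whose average over the 6 libraries was 0 log2 CPM or above, all 10 members among them, and skipped 1617. Groups were compared in R 4.3.3 with limma 3.58.1 on the deposited log2 values, a two-sided group-means model whose variance prior followed intensity, adjusted by Benjamini-Hochberg over all tested genes, with a threshold of 0.05. Fold changes are on the scale of log2(CPM + pseudocount), KO minus CT, which understates changes of low genes. Ratios were tested by exact permutation over libraries (scipy 1.17.1). The fit was tested on simulated data with the same spread in both groups. In the real data 70.0% of tested genes had a larger SD in KO than in CT hearts, which the simulation does not cover. RefSeq matched all 10 members. Named genes were the members, up to 3 called genes per pathway list with the smallest p, or the 1 with the smallest p where none was called, and the 3 genes most correlated with Txn1. G6pdx, Gpx4, Prdx1, Prdx2, Prdx3, Prdx4, Prdx5, Mlxip and Arrdc4 fall outside this rule and were named after their values were seen. Some items that the rule names are not reported here. The members and the lists were chosen with earlier results of these data known. Marker lists for lymphocytes, smooth muscle, atrial and erythroid cells were also counted. Of 3, 8 and 3 tested lymphocyte, smooth muscle and erythroid markers 0 passed the limma test, 0, 1 and 0 had an unadjusted p under 0.05 and 0 passed with limma-voom, and of 5 atrial markers 1 rose (Nppa) and 1 fell (Myl7). The number of atrial markers that fell was 2 without KO replicate 8, with limma-voom or with library weights, and 0 with no trend, with a robust trend and without any 1 other library except CT replicate 4. The number of smooth muscle markers that rose was 1 with rescaled CPM, quantile normalization or library weights and without KO replicate 7. Symbols missing from the table were Txndc2, Txndc8, Cd3e, Nkg7, Bmp10 and Hba-a1. Alternatives were other filters, scalings, pseudocounts and variance models, and each library left out in turn.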

Additional observations from a re-analysis of the deposited data

How the results depend on the processing

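With all libraries kept, the 10 genes held their direction in all 10 other settings, and Txnrd1 stayed past the test in each except the fit with no trend, which called 121 genes in all and 0 of the 10. With 1 library left out, 403 to 2185 genes and 0 to 2 of the 10 passed. The difference of Txn1 then ran from -0.025 to 0.18 log2, reversed without CT replicate 3. Also reversed were Txnl1 without KO replicate 7 (range -0.030 to 0.23) and, without KO replicate 6, Txnrd3 (range -0.41 to 0.026) and Glrx (range -0.50 to 0.027). The ratio of Txnip over Txn1 ran from -0.050 to 0.87, reversed without KO replicate 7 as was that of Txnrd2 over Txn2, Txnrd1 over Txn1 from 0.57 to 0.62, Txnrd2 over Txn2 from -0.094 to 0.28, Glrx over Txn1 from -0.53 to -0.10 and Txn1 over Txn2 from 0.31 to 0.56. The cause of these shifts was not tested. Rescaling CPM to equal sums moved the median of all genes from -0.01 to 0.08. No paired analysis was possible because the groups share no replicate number. At 3 libraries per group, the intervals of the members that did not pass are wide enough to hold differences of the size found for Txnrd1 only for Txnip, Glrx, Glrx2 and Txnrd3.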
